A study of Mus musculus with 16 samples.

Results

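The immunoproteasome and MHC class I presentation genes examined here were 10 genes chosen by name: the catalytic subunits Psmb8, Psmb9 and Psmb10, the activator subunits Psme1 and Psme2, the peptide transporter genes Tap1 and Tap2, the tapasin gene Tapbp, the light chain gene B2m and the heavy chain gene H2-K1. All probes whose accession matched 1 of these symbols were taken, 16 probes in all, and each was well above background on all 16 arrays. The 10 genes were 10 of 25196 features tested. Quadriceps muscle RNA was measured in 4 groups of 4 mice: Klf15 KO mice given 2 mg/kg dexamethasone, Klf15 KO mice given vehicle, WT mice given 2 mg/kg dexamethasone and WT mice given vehicle. All animals received 1 intraperitoneal injection and the samples are labelled 8 h, with 1 Agilent 1-colour array per animal. Klf15 encodes a zinc-finger transcription factor, and dexamethasone is a synthetic agonist of the glucocorticoid receptor. The sources used here do not give how the allele was made, the cells in which it is deleted, or the strain, sex and age of the mice. The comparisons address how muscle transcripts respond to a glucocorticoid and whether that response depends on Klf15.

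The proteasome is a barrel-shaped protease whose 3 kinds of catalytic subunit can be replaced, in cells exposed to interferon or in immune cells, by the induced subunits encoded by Psmb8, Psmb9 and Psmb10. The particle that results is the immunoproteasome, and the PA28 activator made of the Psme1 and Psme2 products opens its ends. Peptides are carried into the endoplasmic reticulum by the TAP transporter, brought to class I molecules by tapasin, and shown at the cell surface by a heavy chain paired with β2-microglobulin. Resting muscle fibres are known for low class I expression, which inflammation raises, so immune and vascular cells can contribute to these transcripts in whole muscle.

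Levels are log2 signals relative to the 75th percentile of the array's probes, so a difference of 1 is 2-fold. A level cannot be set against that of another probe. A change is dexamethasone minus vehicle, or KO minus WT, on that log2 scale, with its standard error (SE), from limma fitted to all 16 arrays with Benjamini-Hochberg adjustment over all 25196 features; the threshold was an adjusted p of 0.05. In whole muscle, fewer cells of a type and less RNA per cell cannot be told apart, and this applies to every change below.

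The arrays carried the labelled genotype and treatment. Klf15 lay between 0.26 and 0.68 on KO dexamethasone arrays, between -1.24 and -0.07 on KO vehicle arrays, between 3.99 and 4.81 on WT dexamethasone arrays and between 2.84 and 3.81 on WT vehicle arrays. Fkbp5, a glucocorticoid receptor target, rose by 2.74 in KO and by 2.98 in WT muscle. Of 8 skeletal muscle fibre markers 8 were measured and none passed the test under dexamethasone in either genotype. Markers of neutrophils were far above all other arrays on KO dexamethasone replicate 1 and WT dexamethasone replicate 3, with summed levels of 99.88 and 246.9 against at most 1.295 elsewhere. KO vehicle replicate 3 was the highest of the 16 arrays for 7 of the 10 genes. Its T and NK cell markers had the highest median deviation of any array, 1.10 above the mean of all arrays. Values without these arrays are given where a result moved with them.

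Of the 10 genes, 4 are consecutive protein-coding genes on chromosome 17, in the order Psmb9, Tap1, Psmb8 and Tap2. Psmb9 and Tap1 start from 1 short stretch of DNA and are read in opposite directions, and the windows of 300 bases around their starts share 275 bases. The stretch at chr17:34187281-34187580 (RefSeq, GRCm38.p6, minus strand, 5′ to 3′) is shown because 2 of the genes with the largest changes flank it. Capitals mark the first 25 bases of Tap1, which is read from the other strand, and the first 50 bases of Psmb9; the 225 bases in lower case lie between the starts.
Psmb9 and Tap1: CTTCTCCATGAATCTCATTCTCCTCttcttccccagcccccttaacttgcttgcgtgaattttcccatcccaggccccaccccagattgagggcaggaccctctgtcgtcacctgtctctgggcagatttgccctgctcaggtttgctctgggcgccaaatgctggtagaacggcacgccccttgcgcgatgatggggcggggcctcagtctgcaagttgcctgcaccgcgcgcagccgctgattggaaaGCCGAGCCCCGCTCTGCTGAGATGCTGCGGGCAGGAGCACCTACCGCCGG
The window of Psmb8 at chr17:34197945-34198244 (plus strand, 250 bases before to 50 after its start) held 1 match to TTCNNNGAA, the palindromic interferon-γ activated pattern called GAS, shown in capitals.
Psmb8: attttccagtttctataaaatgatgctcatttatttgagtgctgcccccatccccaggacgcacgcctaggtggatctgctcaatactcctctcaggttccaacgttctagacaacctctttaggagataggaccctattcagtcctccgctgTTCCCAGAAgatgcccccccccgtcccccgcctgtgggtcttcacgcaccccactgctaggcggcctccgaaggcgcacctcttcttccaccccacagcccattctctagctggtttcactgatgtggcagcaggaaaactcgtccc
The window of B2m at chr2:122147437-122147736 (plus strand) is shown beside it as that of a gene that did not pass the test, and held the pattern of interferon regulatory factor elements, a repeat of GAAA with 2 bases between, in capitals.
B2m: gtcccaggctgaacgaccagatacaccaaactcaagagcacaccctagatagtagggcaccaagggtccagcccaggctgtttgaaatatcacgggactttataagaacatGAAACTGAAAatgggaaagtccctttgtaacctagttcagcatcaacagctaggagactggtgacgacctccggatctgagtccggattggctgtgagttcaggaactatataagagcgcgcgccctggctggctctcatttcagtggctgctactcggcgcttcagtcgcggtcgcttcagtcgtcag
Windows were found for 9 of the 10 genes, the exception being Tap2, and were searched on both strands. The interferon regulatory factor pattern was in the windows of 2 of the 9 genes, B2m and Psme1, and in 3.43% of 32817 windows of all genes. TTCNNNGAA was in that of Psmb8 alone and in 8.29% of all windows. The NF-kB consensus was in those of B2m and H2-K1 and in 8.46% of all windows; the B2m match did not overlap its interferon regulatory factor match. The glucocorticoid response element, searched as GNACA and TGTNC with 3 bases between, was in none of the 9 and in 0.475% of all windows. Only exact matches to these letters were counted, so a window without a match may still hold an element that departs from them. A match is a description of the letters and not of binding.

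Under dexamethasone, 5 of the 10 genes fell in KO muscle (Psmb8, Psmb9, Psmb10, Tap1 and Tap2) and 5 fell in WT muscle (Psmb8, Psmb9, Psmb10, Psme2 and Tap1), and none rose in either. The largest falls were those of Psmb9, 4.15-fold in KO and 3.08-fold in WT, and Psmb8, 3.68-fold in KO and 2.57-fold in WT. Of all features tested, 4.72% were lower in KO and 5.66% were lower in WT at the same threshold. The median change of the 10 genes was -0.462 in KO and -0.537 in WT, beside medians of 0.067 and -0.075 over all features. With both genotypes averaged, 7 of the 10 genes fell, against 8.39% of all features, Tap2, Psme2 and H2-K1 (-0.46, SE 0.13, adjusted p = 0.0258) among them; without any 1 of 5 arrays, 4 of them WT, the H2-K1 call was lost, with adjusted p between 0.0506 and 0.0569, as it was without both arrays with raised neutrophil markers (0.07), without the 3 arrays that the scanner software marked for evaluation (0.0524) and with median scaling (0.102). The averaged Psme2 call was also lost with median scaling (adjusted p 0.101). Dexamethasone and vehicle arrays did not overlap for the 5 genes that passed in each genotype, against 7.09% of features lower without overlap in KO and 9.23% in WT. Scaling arrays to their median instead moved the median of all features in WT to 0.17, and the share of calls that were higher in WT to 82.8% from 47.4%. The calls in WT were then 3 of the 10, Psmb8, Psmb9 and Tap1, and Psme1, Tapbp and B2m changed by 0.11, 0.11 and 0.13.

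**Figure D1:**
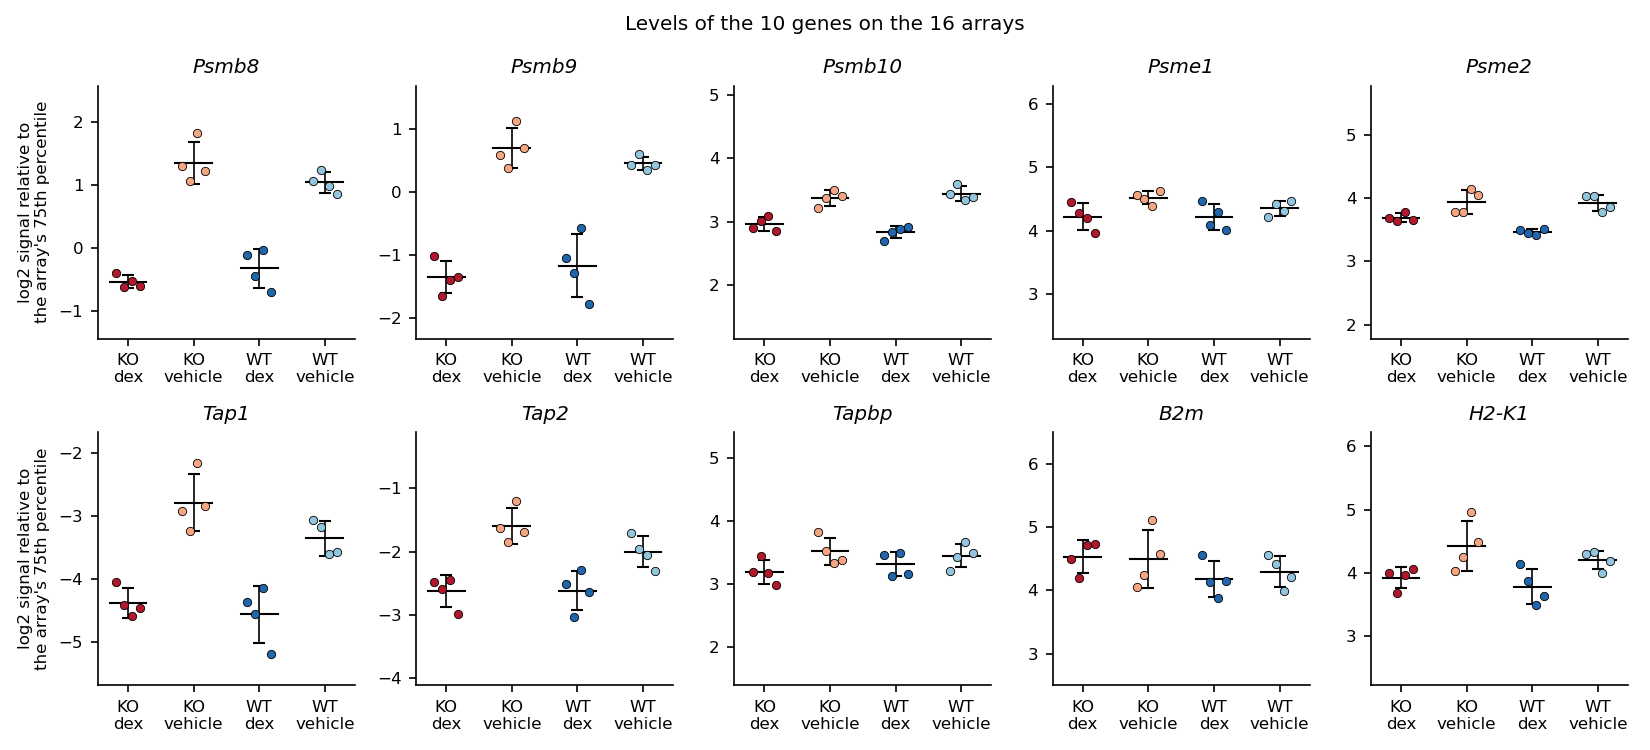
Levels of the 10 genes on each array (log2 signal relative to the array's 75th percentile) in KO dexamethasone, KO vehicle, WT dexamethasone and WT vehicle muscle; points are animals, lines and bars the mean and SD of 4, and every panel spans the same number of log2 units. Psmb8, Psmb9, Psmb10 and Tap1 do not overlap between dexamethasone and vehicle in either genotype, while B2m, Psme1 and Tapbp overlap in both.

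The 3 catalytic subunits of the immunoproteasome all fell in both genotypes. Psmb8 encodes the subunit that takes the place of the chymotrypsin-like Psmb5 product. Its levels were -0.39, -0.62, -0.52 and -0.60 on KO dexamethasone arrays, against 1.29, 1.06, 1.82 and 1.22 on KO vehicle arrays. In WT muscle they were -0.11, -0.45, -0.03 and -0.69 with dexamethasone, against 1.07, 1.24, 0.99 and 0.86 with vehicle. Every dexamethasone array lay below 0 and every vehicle array above it, so the groups did not overlap in either genotype. Psmb8 fell by 1.88 in KO (SE 0.17, adjusted p = 1.46e-05) and by 1.36 in WT (SE 0.17, adjusted p = 0.000263). Its second probe changed by -1.81 in KO and -1.56 in WT (SE 0.19 each), and passed in both when all probes were tested one by one.

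Psmb9 encodes the subunit that replaces the caspase-like Psmb6 product. Its levels were -1.02, -1.65, -1.40 and -1.34 on KO dexamethasone arrays, against 0.58, 0.38, 1.13 and 0.70 on KO vehicle arrays. In WT muscle they were -1.05, -1.29, -0.57 and -1.77 with dexamethasone, against 0.42, 0.60, 0.35 and 0.43 with vehicle. All 8 dexamethasone arrays were below 0 and all 8 vehicle arrays above it, and WT dexamethasone animals spread most, with an SD of 0.50. Psmb9 fell by 2.05 in KO (SE 0.22, adjusted p = 6.62e-05) and by 1.62 in WT (SE 0.22, adjusted p = 0.000493). The calls of Psmb8 and Psmb9 held under each of 13 other settings and without any 1 of the 16 arrays in both genotypes. Within slides that held both treatments, Psmb9 changed by -1.72, -2.47 and -2.23 in KO (slides 4, 6 and 7) and by -1.71 in WT (slide 5).

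Psmb10 encodes the subunit that replaces the trypsin-like Psmb7 product, and its falls were smaller. Its levels were 2.89, 3.01, 3.09 and 2.84 on KO dexamethasone arrays, against 3.22, 3.37, 3.51 and 3.40 on KO vehicle arrays. In WT muscle they were 2.69, 2.83, 2.88 and 2.91 with dexamethasone, against 3.44, 3.60, 3.34 and 3.39 with vehicle. The groups were narrow and did not overlap in either genotype. Psmb10 fell by 0.42 in KO (1.33-fold, SE 0.09, adjusted p = 0.0102) and by 0.61 in WT (1.53-fold, SE 0.09, adjusted p = 0.000888). The call was lost with median scaling in both genotypes (adjusted p 0.108 in KO and 0.151 in WT), in KO without the arrays marked for evaluation (0.0912) or with KO groups alone (0.0563), and in WT with slide as a fixed block (0.0713).

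The constitutive subunits that these 3 replace gave no call. Psmb5, Psmb6 and Psmb7 changed by -0.01, 0.11 and -0.05 in KO and by 0.03, 0.13 and 0.19 in WT, with adjusted p of at least 0.769 in KO and 0.320 in WT. Their 95% intervals reached no further than -0.29 and 0.43. Of 11 other subunits of the 20S core none passed in either genotype, with medians of 0.098 in KO and 0.096 in WT. With both genotypes averaged, 1 of the 11 rose past the threshold, and 10 of the 11 changes were above 0. Of a list of 7 genes, the 3 counterparts with Psme3, Psme4, Psmf1 and Pomp, none passed in either genotype.

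The log2 ratio of each induced subunit to its counterpart was therefore compared on each array; only its difference between groups has a meaning, since it joins 2 probes. The Psmb8 to Psmb5 ratio was -5.88, -6.24, -5.83 and -5.87 on KO dexamethasone arrays, against -4.364, -4.375, -3.397 and -4.197 on KO vehicle arrays. In WT it was -5.59, -5.93, -5.63 and -5.97 with dexamethasone, against -4.09, -4.18, -4.62 and -4.67 with vehicle. The ratio was lower on every dexamethasone array than on any vehicle array, by a mean of 1.87 in KO and 1.39 in WT on the log2 scale. The Psmb9 to Psmb6 ratio changed by -2.16 in KO and -1.747 in WT, again without overlap. The Psmb10 to Psmb7 ratio changed by -0.37 in KO, where the groups overlapped, and by -0.80 in WT, where they did not. Exact two-sided permutation tests gave p = 0.0286 for 5 of the 6 differences, the smallest that 70 permutations of 4 against 4 allow, and p = 0.0571 for Psmb10 to Psmb7 in KO; adjusted over the 6 tests these were 0.0343 and 0.0571.

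**Figure D2:**
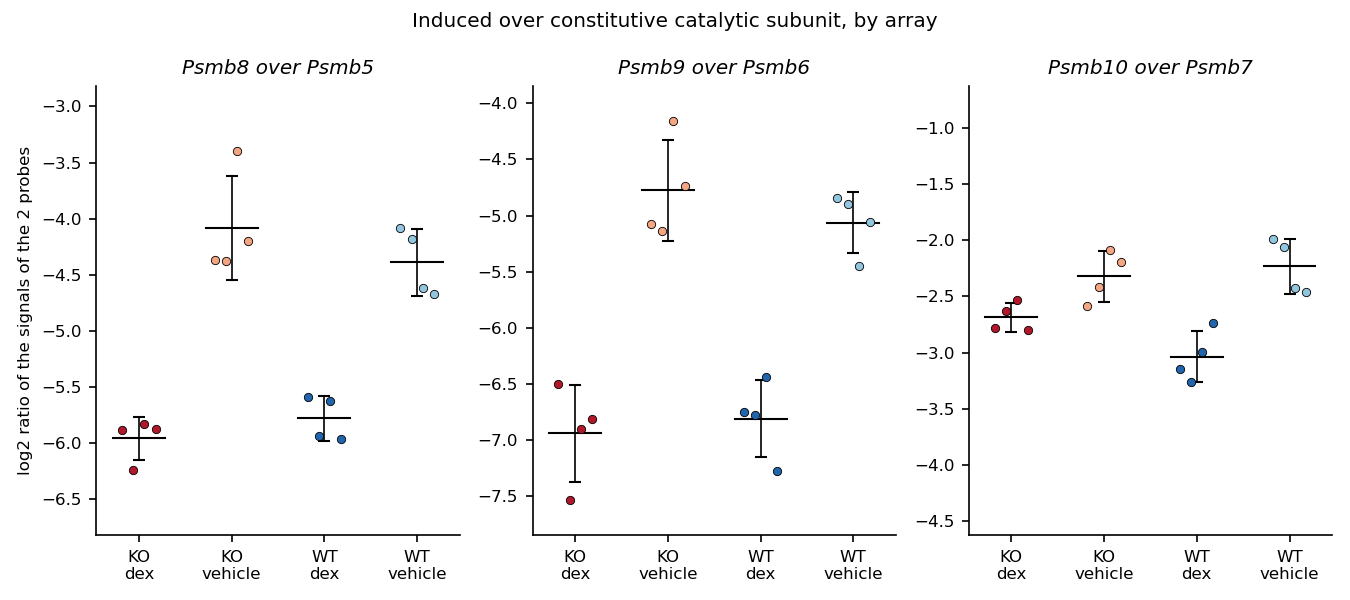
Log2 ratio of the probe signals of each induced catalytic subunit to its constitutive counterpart, on each array, in KO dexamethasone, KO vehicle, WT dexamethasone and WT vehicle muscle; points are animals, lines and bars the mean and SD of 4. The Psmb8 and Psmb9 ratios lie apart by treatment in both genotypes, and the Psmb10 ratio lies apart in WT and overlaps in KO.

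The activator subunits moved little. Psme2, the β subunit of PA28, had levels of 3.69, 3.64, 3.79 and 3.66 on KO dexamethasone arrays, against 3.78, 3.78, 4.15 and 4.05 on KO vehicle arrays. In WT muscle its levels were 3.50, 3.45, 3.41 and 3.52 with dexamethasone, against 4.04, 4.04, 3.79 and 3.86 with vehicle. The WT groups did not overlap, and the KO groups met at 3.79 and 3.78. Psme2 fell by 0.46 in WT (1.38-fold, SE 0.10, adjusted p = 0.00816) and changed by -0.25 in KO (SE 0.10, adjusted p = 0.15). The KO change passed with the deposited log2 values (-0.35, adjusted p = 0.034) and with slide as a random block (-0.28, adjusted p = 0.0098). The WT call was lost with median scaling (adjusted p 0.322) and with slide as a fixed block (0.0848), and the second Psme2 probe changed by -0.24 in each genotype without passing (adjusted p 0.144 in KO and 0.119 in WT over all probes). Psme1, the α subunit, lay between 3.96 and 4.46 on KO dexamethasone arrays and between 4.38 and 4.62 on KO vehicle arrays. In WT it lay between 4.02 and 4.47 with dexamethasone and between 4.21 and 4.47 with vehicle. It overlapped between treatments in both, with changes of -0.30 in KO (adjusted p = 0.177) and -0.14 in WT (adjusted p = 0.531).

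Both subunits of the peptide transporter had lower signal with dexamethasone. Tap1 levels were -4.04, -4.42, -4.59 and -4.46 on KO dexamethasone arrays, against -2.92, -3.24, -2.17 and -2.85 on KO vehicle arrays. In WT muscle they were -4.37, -4.56, -4.14 and -5.19 with dexamethasone, against -3.07, -3.18, -3.60 and -3.58 with vehicle. All 8 dexamethasone arrays were below -4 and all 8 vehicle arrays above it. Tap1 fell by 1.58 in KO (SE 0.25, adjusted p = 0.00109) and by 1.204 in WT (2.30-fold, SE 0.25, adjusted p = 0.0075). With normexp background correction the Tap1 changes were -0.64 in KO (adjusted p = 0.0295) and -0.48 in WT (adjusted p = 0.0992), and with slide as a fixed block the WT call was also lost (adjusted p 0.0713).

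Tap2 levels were -2.48, -2.59, -2.44 and -2.99 on KO dexamethasone arrays, against -1.63, -1.85, -1.19 and -1.70 on KO vehicle arrays. In WT muscle they were -2.51, -3.03, -2.29 and -2.64 with dexamethasone, against -1.71, -1.96, -2.05 and -2.30 with vehicle. The KO groups lay apart, while WT dexamethasone replicate 3 and WT vehicle replicate 4 met at -2.29 and -2.30. Tap2 fell by 1.03 in KO (2.04-fold, SE 0.19, adjusted p = 0.00330) and changed by -0.62 in WT (SE 0.19, adjusted p = 0.0561). The KO call was lost without the arrays marked for evaluation (adjusted p 0.0653), and in WT the change passed under 4 of 13 other settings and without any 1 of 4 arrays. Tapbp, which encodes tapasin, lay between 2.98 and 3.45 on KO dexamethasone arrays, against 3.33 to 3.82 on KO vehicle arrays. In WT it lay between 3.13 and 3.49 with dexamethasone, against 3.21 to 3.66 with vehicle. The groups overlapped, with changes of -0.32 in KO (adjusted p = 0.209) and -0.14 in WT (adjusted p = 0.596); its second probe gave -0.16 and -0.51, without passing. In KO it passed with slide as a fixed block (-0.32, adjusted p = 0.0442) or a random block (-0.31, adjusted p = 0.0224).

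With the brightest probe, the 2 chains of the class I molecule itself gave no call in either genotype alone, but H2-K1 passed with other probes and settings. B2m, the light chain, had levels of 4.49, 4.19, 4.72 and 4.74 on KO dexamethasone arrays, against 4.05, 4.24, 5.12 and 4.58 on KO vehicle arrays. In WT its levels were 4.57, 4.13, 3.89 and 4.15 with dexamethasone, against 4.56, 4.42, 3.99 and 4.21 with vehicle. The groups overlapped along most of their range. The change was 0.04 in KO (95% interval -0.44 to 0.52, adjusted p = 0.960) and -0.11 in WT (-0.59 to 0.37, adjusted p = 0.812). Its second probe changed by 0.16 in KO (adjusted p = 0.911) and -0.16 in WT (adjusted p = 0.88), with an SE of 0.48 each.

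H2-K1, a classical heavy chain, had levels of 3.99, 3.67, 3.96 and 4.06 on KO dexamethasone arrays, against 4.03, 4.25, 4.95 and 4.49 on KO vehicle arrays. In WT its levels were 4.13, 3.86, 3.49 and 3.64 with dexamethasone, against 4.29, 4.33, 4.00 and 4.18 with vehicle. The groups overlapped by 1 array on each side in both genotypes. With the brightest of its 3 probes it changed by -0.51 in KO (SE 0.19, adjusted p = 0.116) and -0.42 in WT (SE 0.19, adjusted p = 0.185). A second probe passed in both, with -0.71 in KO (adjusted p = 0.0227) and -0.60 in WT (adjusted p = 0.0474) over all probes. The third gave -0.68 in KO (adjusted p = 0.0307) and -0.37 in WT (adjusted p = 0.258), where 1 vehicle value was marked as an outlier and left out. The mean of all H2-K1 probes passed in both genotypes, with -0.63 in KO (adjusted p = 0.0332) and -0.62 in WT (adjusted p = 0.0361). The brightest probe passed in KO with slide as a fixed block (adjusted p = 0.0495) or a random block (0.00966), and its change there was -0.33 without KO vehicle replicate 3. Class I heavy chain genes are near-identical copies, so the signal of an H2 probe may come from more than 1 gene.

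**Figure D3:**
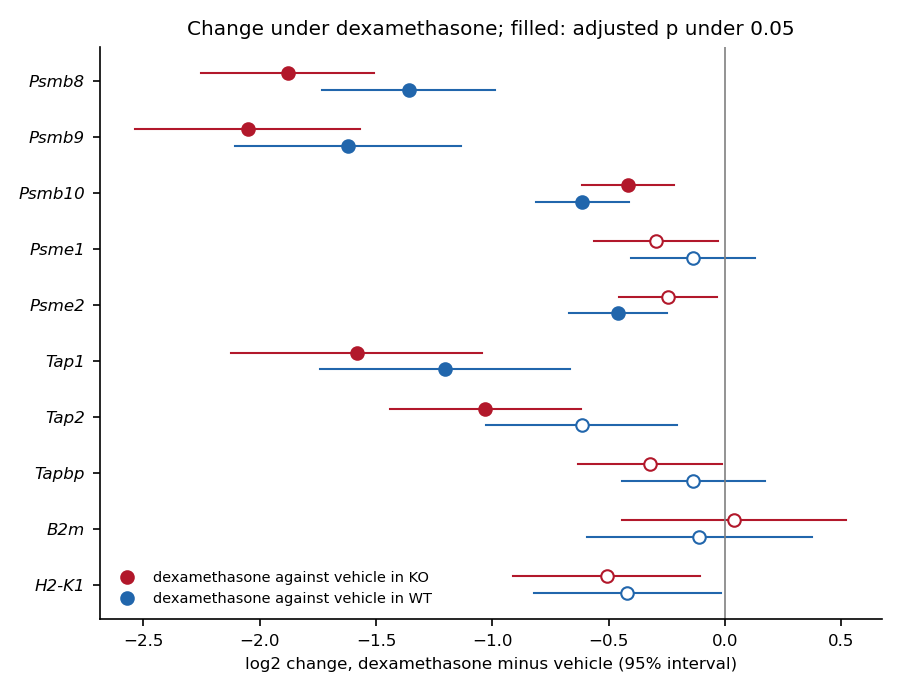
Log2 change under dexamethasone (dexamethasone minus vehicle) of the 10 genes, upper points KO and lower points WT, with 95% intervals from limma; filled points have an adjusted p under 0.05 over all features. Psmb9, Psmb8 and Tap1 lie farthest below 0 in both genotypes, and B2m lies at 0.04 in KO and -0.11 in WT.

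The 4 genes of the chromosome 17 cluster had the 4 largest changes of the 10 in KO, at -2.05, -1.58, -1.88 and -1.03 in the order Psmb9, Tap1, Psmb8 and Tap2, and in WT they were at -1.62, -1.204, -1.36 and -0.62. In each genotype the order of size was Psmb9, Psmb8, Tap1 and Tap2, and differences between neighbours in that order were not tested. The order of Tap1 and Tap2 in KO depended on the processing. With normexp background correction the Tap1 change there was -0.64, while that of Tap2 lay between -1.16 and -0.78 over 13 other settings. Psmb10, on chromosome 8, and Psme2, on chromosome 14, changed less than the 4 cluster genes in KO, while in WT the changes of Psmb10 and Tap2 were -0.613 and -0.615. With the brightest probe of each, Tapbp and H2-K1, elsewhere on chromosome 17, and B2m, on chromosome 2, did not pass in either genotype alone.

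Slides held 1 to 3 arrays each, and treatment could be compared within 4 of them. On slides 4 and 6 all 10 genes were lower with dexamethasone in KO and on slide 5 all 10 were lower in WT; on slide 7 the count was 9 of 10 in KO, B2m being the exception. The median differences of the 10 genes were -0.51, -0.78 and -0.36 in KO, beside 0.03, 0.04 and 0.10 for all features on the same slides, and -0.48 in WT, beside -0.05. Slide 5 alone held both treatments of WT, so the WT value within a slide rests on 1 pair of arrays. With slide as a fixed block, where the arrays alone on a slide (KO vehicle replicate 2 and replicates 1 and 3 of WT dexamethasone) add nothing, 2 of the 10 genes passed in WT, Psmb8 and Psmb9, and 7 passed in KO, Tapbp and H2-K1 beside the 5 genes that passed without the block. Of all 25196 features, 766 passed in WT and 2588 in KO with the fixed block, against 2709 and 2528 without it. With slide as a random block (correlation within slides 0.575), 9 of the 10 genes passed in KO, as did 5026 of all features. Without both arrays with raised neutrophil markers, Psmb8, Psmb9, Psmb10, Tap1 and Tap2 passed in both genotypes (Tap2 in WT -0.72, adjusted p = 0.0477).

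Related genes were counted from lists chosen with earlier results of these data known. Of all 25196 features, 4.72% were lower in KO and 5.66% in WT at the threshold, and 1338 and 1283 were higher. Their median changes were 0.067 and -0.075. Of 14 other class I heavy chain genes and partners of B2m, 9 fell in KO and 2 in WT, with median changes of -0.564 and -0.405. In KO these included H2-Q10 (-0.71, SE 0.21), H2-Q7 (-0.70, SE 0.16), H2-T23 (-0.66, SE 0.20) and H2-Bl (-0.64, SE 0.18), and in WT H2-Q8 (-1.10, SE 0.32) and H2-M3 (-0.93, SE 0.16). The KO count moved with the arrays and settings used. Without any 1 of 9 arrays it was 3 to 5 of 14, with 3 without KO vehicle replicate 3. It was 3 without both arrays with raised neutrophil markers and 2 without the arrays marked for evaluation. With all arrays kept, it was 5 with median scaling and 4 with the replicate block or without the filter on dim probes. Over 29 other settings, single left-out arrays among them, it ranged from 2 to 10. The WT count was 1 to 4 when any 1 array was left out. All 14 changes were below 0 in KO and 13 of 14 in WT. None of the 14 passed in the interaction (KO change minus WT change), so the counts do not show a difference between genotypes. Of 7 peptide trimming and loading genes, 1 rose in each genotype: Lnpep, an aminopeptidase of endosomes that trims peptides for cross-presentation, by 0.47 in KO (SE 0.11, adjusted p = 0.0148) and by 0.43 in WT (SE 0.11, adjusted p = 0.0237).

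Genes of interferon signalling and class I regulation fell in part. Of 20 tested, 7 fell and 1 rose in KO, and 5 fell and 2 rose in WT, with medians of -0.237 and -0.207. Over all 25196 features the medians were 0.067 and -0.075. At the threshold 4.72% of them were lower in KO and 5.66% in WT, and 1338 and 1283 were higher. Irf1, a transcription factor that induces Psmb8, Psmb9 and Tap1 after interferon-γ, had levels of 0.44, 0.54, 0.93 and 0.93 on KO dexamethasone arrays, against 1.28, 1.36, 1.65 and 1.65 on KO vehicle arrays. In WT its levels were 0.83, 0.94, 0.95 and 1.10 with dexamethasone, against 1.66, 1.40, 1.41 and 1.30 with vehicle. The groups did not overlap, and Irf1 fell by 0.77 in KO (1.71-fold, SE 0.14, adjusted p = 0.00243) and by 0.48 in WT (SE 0.14, adjusted p = 0.0371).

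Socs1, an inhibitor of the same pathway that interferon induces, fell by 1.96 in KO and 2.21 in WT (SE 0.56 each). Rfx5, which binds class I and II promoters, fell by 0.92 in KO (SE 0.19), and Stat2 fell by 0.77 in KO and 0.94 in WT (SE 0.15 each). Ifngr1, a chain of the interferon-γ receptor, rose by 0.63 in KO and 0.42 in WT (SE 0.11 each), and Irf2, which can oppose Irf1, rose by 0.46 in WT (SE 0.12); both were named after their values were seen. Irf9, the DNA-binding part of the complex that type I interferon activates, fell by 0.50 in WT (SE 0.09). Without KO vehicle replicate 3 the falls numbered 5 in KO and 4 in WT, and without any 1 of WT vehicle replicates 1, 3 and 4 or WT dexamethasone replicates 1 and 2 they numbered 2 to 3 in WT. With slide as a fixed block none of the 20 was lower in WT at the threshold. The WT falls numbered 3 without both arrays with raised neutrophil markers and 2 with median scaling. Without the arrays marked for evaluation 2 fell and none rose in WT. None of the 20 passed in the interaction (KO change minus WT change). No probe was matched to Nlrc5, the class I transactivator, which is not reported here.

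**Figure D4:**
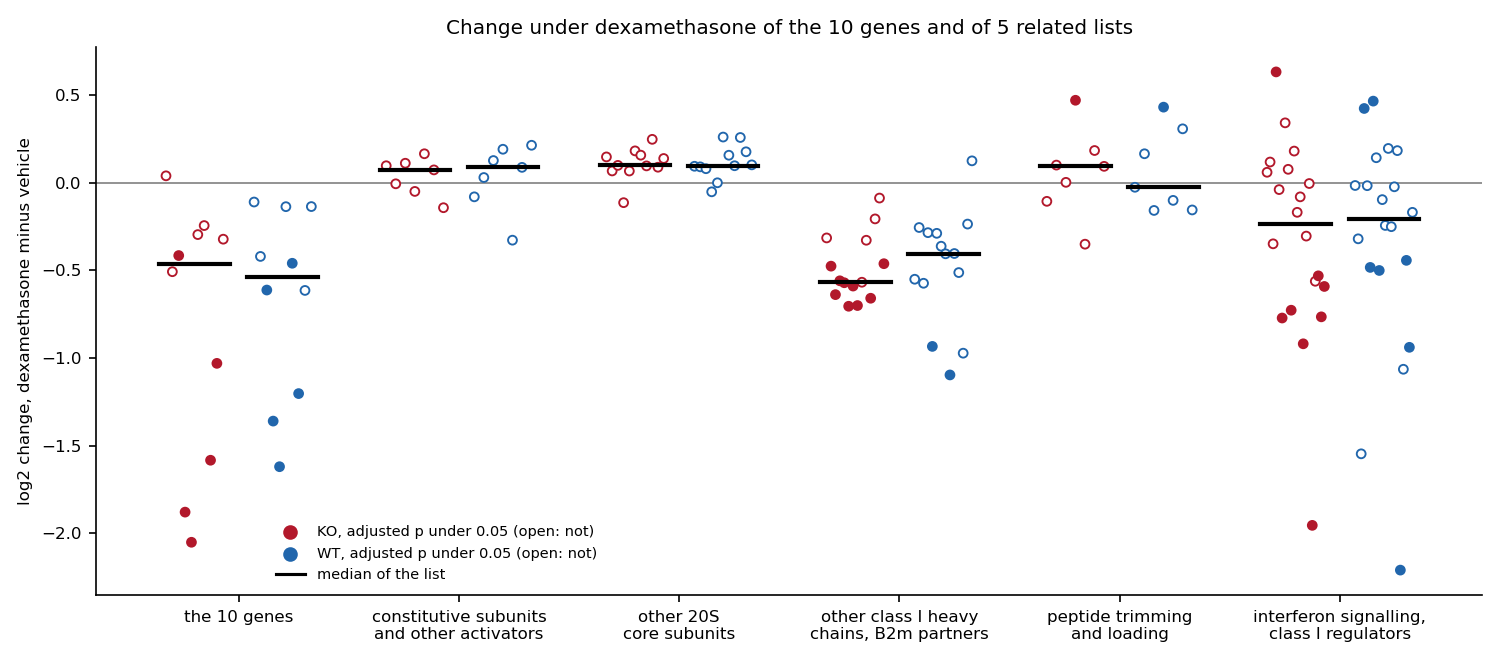
Log2 change under dexamethasone (dexamethasone minus vehicle) of the 10 genes and of 5 related lists, KO points left and WT points right in each list; filled points have an adjusted p under 0.05 and bars are list medians. The list labelled constitutive subunits and other activators also holds Psmf1 and Pomp. Its medians are 0.072 in KO and 0.087 in WT, and those of the other core subunits are 0.098 and 0.096. The other class I heavy chains have medians of -0.564 in KO and -0.405 in WT.

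Some markers of immune cells fell under dexamethasone, where 4.72% of all features were lower in KO and 5.66% in WT. The 8 neutrophil markers went the other way, with medians of 1.381 in KO and 2.251 in WT, and none passed. They were far above the rest on KO dexamethasone replicate 1 and WT dexamethasone replicate 3. None of 3 B cell markers tested passed. Of 10 macrophage markers 1 fell in KO and 5 fell in WT, with 3 in KO without KO dexamethasone replicate 4 and 3 in WT without WT vehicle replicate 2 or 3. The WT count was 1 with slide as a fixed block and 2 with median scaling. The 10 macrophage markers had median changes of -0.352 in KO and -0.623 in WT, with 3 above 0 in KO and none in WT. The macrophage markers' summed level was 8.41 to 15.6 on KO dexamethasone arrays, against 10.65 to 14.31 on KO vehicle arrays, which overlap. In WT it was 8.02 to 10.68 with dexamethasone, against 12.4 to 18.1 with vehicle, which do not. The marker that fell in both genotypes was Aif1, by 2.87 in KO and 3.05 in WT (SE 0.40 each). Adgre1, which encodes F4/80, changed by -0.52 in KO (adjusted p = 0.133) and fell by 1.13 in WT (SE 0.20), and was well above background on all 16 arrays.

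Of 12 T and NK cell markers 1 fell in each genotype, Cd247, by 2.63 in KO and 1.90 in WT (SE 0.17 each). That count is not far from the share over all features. The 12 markers had median changes of -0.266 in KO and -0.584 in WT, with 2 above 0 in KO and 1 in WT. Their summed level was 0.605 to 1.54 on KO dexamethasone arrays, against 0.565 to 1.65 on KO vehicle arrays, and 0.572 to 1.21 on WT dexamethasone arrays, against 1.32 to 1.48 on WT vehicle arrays. The T-cell marker Cd3e was well above background on 16 arrays and the NK-cell marker Gzma on 4. Of 3 dendritic cell markers tested 1 fell in each genotype, Itgax, with summed levels of 0.363 to 0.715 on KO dexamethasone, 0.432 to 0.803 on KO vehicle, 0.340 to 0.766 on WT dexamethasone and 0.708 to 0.835 on WT vehicle arrays. Of 10 endothelial markers 4 fell in KO and none in WT, with 2 in KO without KO vehicle replicate 2 or 4 or KO dexamethasone replicate 2 or 4. The part of these cells in the changes of the 10 genes was not tested.

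**Figure D5:**
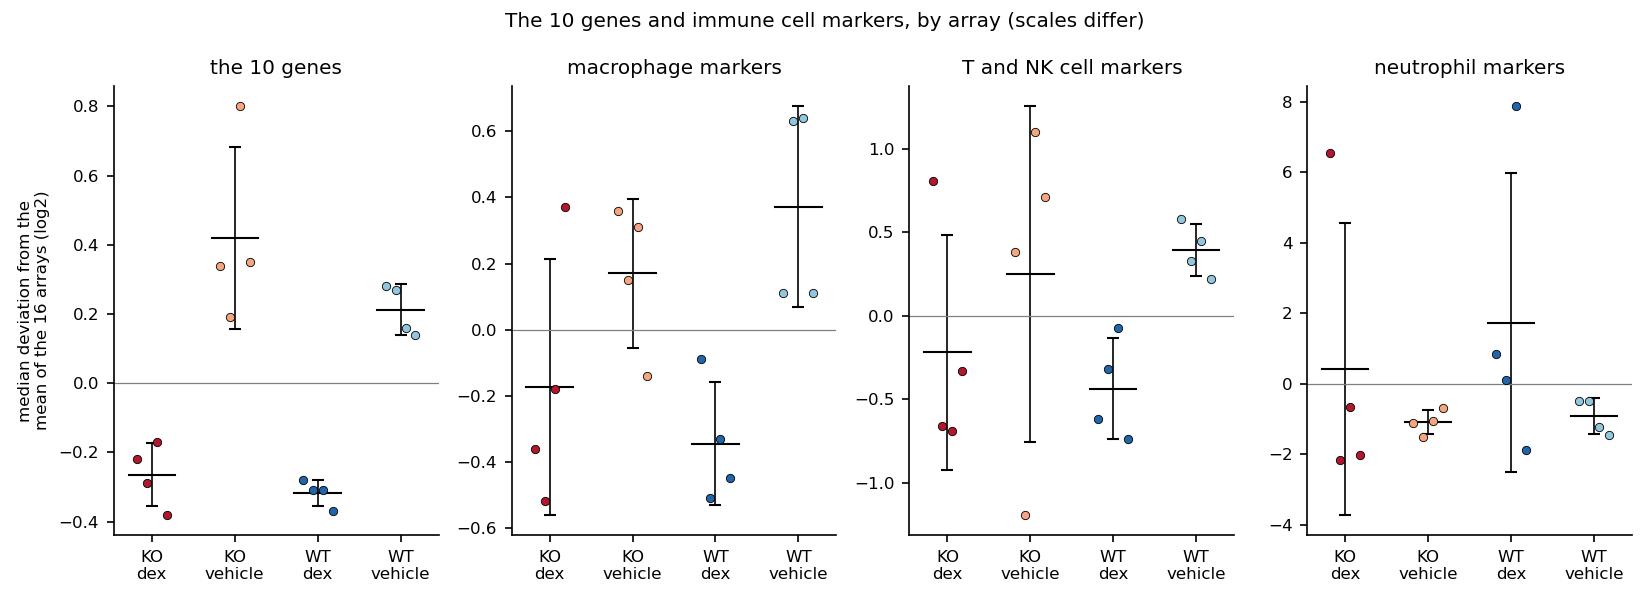
Median deviation (log2) from the mean of all 16 arrays of the 10 genes and of macrophage, T and NK cell, and neutrophil markers, on each array, in KO dexamethasone, KO vehicle, WT dexamethasone and WT vehicle muscle; points are animals, lines and bars the mean and SD of 4, and the scales differ. The median of the 10 genes lies below 0 on all 8 dexamethasone arrays. The macrophage and T and NK cell markers overlap between treatments in KO and lie apart by treatment in WT.

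Loss of Klf15 gave no call among the 10 genes under either treatment. Under vehicle 9 of the 10 were higher in KO than in WT, with a median difference of 0.216 beside -0.076 for all features, and 0.258% of all features passed. The largest was Tap1, at a mean of -2.79 ± 0.45 in KO and -3.36 ± 0.27 in WT muscle (SD, n = 4 each), a difference of 0.57 (SE 0.25, adjusted p = 0.683). Without KO vehicle replicate 3, the array that was highest for most of the 10 genes, it was 0.36 and the median was 0.118. Under dexamethasone 1.83% of all features passed. There the differences of the 10 genes had a median of 0.066 beside 0.048 for all features. Psme2 alone did not overlap, at 3.64 to 3.79 in KO and 3.41 to 3.52 in WT, and its difference of 0.22 did not pass (SE 0.10, adjusted p = 0.321); 3.98% of all features were higher in KO without overlap.

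The dexamethasone changes were not shown to differ between genotypes. In the interaction (KO change minus WT change) none of the 10 genes and 0% of all features passed in limma, and none of the 10 had an unadjusted p under 0.05. The largest was Psmb8, with a change of -1.88 in KO and -1.36 in WT and a difference of -0.52 (95% interval -1.04 to 0.01, unadjusted p = 0.0522, adjusted p = 0.442). Without KO vehicle replicate 3 the Psmb8 difference was -0.36, and over 12 other settings it ranged from -0.82 to -0.32. The differences of Psmb9, Tap1 and Tap2 were -0.43, -0.38 and -0.42, with intervals of -1.12 to 0.25, -1.14 to 0.38 and -0.997 to 0.16. That of Psme2, which passed in WT and in KO only under 2 of 13 other settings, was 0.22 (-0.08 to 0.51). Without KO vehicle replicate 3 the differences of Psmb9, Tap1 and Tap2 were -0.29, -0.17 and -0.28, and without WT dexamethasone replicate 3 that of Psmb9 was -0.23. Over the 12 other settings they ranged from -0.73 to -0.20, from -0.76 to -0.15 and from -0.71 to -0.21, and none passed. The 95% intervals of these differences include 0 and reach differences in either direction.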

How the data were processed

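Quadriceps RNA was amplified and hybridised to Agilent 1-colour arrays, 1 per mouse. Per the file headers, the authors used Feature Extraction 10.7.3.1, whose files give an intensity for every spot, with the background subtracted within the array. The deposited value table holds log2 values with nearly equal distributions in all samples; no source used here gives its normalization, and it served as an alternative.

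Control and outlier spots were left out, spots of a probe were averaged, and log2(processed signal) minus the 75th percentile of the array was taken; that percentile was 554 to 1169. Of 41174 probes, 26382 carried a RefSeq accession and 24844 matched a symbol. A gene was represented by its brightest probe. Features that stood well above background on 4 or more of 16 arrays entered the fit, 25196 in all, 15177 of them with a symbol. The share of spots well above background was 66.3% to 80.6%, and the number of arrays limits the precision.

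Group means of all 16 arrays were fitted with limma 3.58.1 (R 4.3.3), tested on simulated data first. The simulated arrays varied independently and held no slides. They could not test how the correlation within slides (0.575) bears on the fit. Adjusted p-values are Benjamini-Hochberg over all features; probes were also tested one by one over 32406 probes. Log ratios of 2 probes were compared with exact permutation tests. Groups come from the sample titles. The labels do not say whether mice of a group shared a litter, so p-values measure the spread between these samples.

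All probes of the 10 genes are reported. From each related list, at most 4 genes past the threshold with the largest change are named for each comparison, plus Psmb5, Psmb6, Psmb7 and Irf1, with Klf15 and Fkbp5 as checks of the labels. Values of 1 other gene that this rule names are not reported here. The members and lists were chosen with earlier results of these data known. Alternatives covered scaling, background correction (normexp with offset 50, on spot medians in place of spot means, with the array's median background at background outliers), the filter, slide and replicate blocks, probe averaging and left-out arrays; normexp on these columns, counts for the lists and the fits without KO vehicle replicate 3 for them were chosen after seeing the data. The arrays lay on 8 slides and were scanned on 2 days, the second with WT dexamethasone replicate 3 alone, so day could not be tested.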

Additional observations from a re-analysis of the deposited data

Results flagged for a closer look

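Of 72 groups of 4 arrays examined for the levels and ratios reported, 2 held a sample far from the other 3, and chance gives about 1 in 20. KO dexamethasone replicate 2 had a Psmb6 level of 5.89, against 5.47 to 5.50 on the other KO dexamethasone arrays. The same array had a Psmb8 to Psmb5 ratio of -6.24, against -5.88 to -5.83 on the others. It was 1 of the 3 arrays that the scanner software marked for evaluation.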

How the results depend on the processing

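The falls of Psmb8 and Psmb9 kept their direction and call in both genotypes under 13 other settings and without any 1 of 16 arrays; over the settings Psmb8 ranged from -1.95 to -1.67 in KO and from -1.52 to -1.12 in WT, and Psmb9 from -2.16 to -1.86 in KO and from -1.91 to -1.38 in WT. The causes of the following shifts were not tested. Under dexamethasone in KO, 2528 features passed, against 1419 with median scaling, 5026 with slide as a random block and 1261 without the arrays marked for evaluation, and 9 and 3 of the 10 genes passed with the random block and without those arrays. In WT, 2709 features passed, against 766 with slide as a fixed block and 1435 with WT groups alone, and 2 of the 10 genes passed with the fixed block and 3 with median scaling. Between KO and WT under vehicle, 65 features passed, against 38 with median scaling, 21 with the fixed block, 433 with the random block and 30 with vehicle groups alone. Between KO and WT under dexamethasone, 460 features passed, against 216 with median scaling, 45 with the fixed block, 956 with the random block, 290 with the replicate block, 232 without both arrays with raised neutrophil markers, 111 without the arrays marked for evaluation and 111 with dexamethasone groups alone; with median scaling 10.2% of these calls were higher, against 52.2%, and of those averaged over genotypes 65.6%, against 51.1%. In the interaction 0 features passed, against 1 with normexp, 1 with the deposited log2 values, 6 with the filter on all 16 arrays and 321 with the random block. Directions turned for genes without a call. In WT, Psme1, Tapbp and B2m were at 0.11, 0.11 and 0.13 with median scaling. In KO, B2m was at -0.0144 with median scaling, -0.0380 with quantile normalization, -0.0124 with normexp, -0.0656 with deposited values, -0.0839 with the fixed block and -0.0219 with the random block, and between -0.11 and 0.24 without any 1 array. Averaged over genotypes, B2m was at 0.0595 with median scaling and 0.0204 without both arrays with raised neutrophil markers, and between -0.11 and 0.067 without any 1 array. The interaction of Psmb10 was -0.10 and that of Psme2 -0.0823 with median scaling. Without any 1 array, features called ranged from 1809 to 2660 in KO (5 of the 10 genes each time), from 1625 to 2664 in WT (5 to 6), from 44 to 70 between genotypes under vehicle (0), from 285 to 480 under dexamethasone (0), from 0 to 3 in the interaction (0) and from 3531 to 4230 averaged (6 to 7). The lowest in WT came without WT vehicle replicate 2; under dexamethasone 285 and 295 came without KO dexamethasone replicates 3 and 2. The log ratios ranged from -1.97 to -1.64 (Psmb8 to Psmb5), -2.31 to -1.96 (Psmb9 to Psmb6) and -0.45 to -0.29 (Psmb10 to Psmb7) in KO, and from -1.48 to -1.29, -1.88 to -1.59 and -0.90 to -0.72 in WT; Psmb10 to Psmb7 in KO reached p = 0.0286 (exact permutation test) without KO vehicle replicate 1. Replicate numbers did not pair the samples (same-number correlations of -0.66 to 0.66, 5 of 24 over 0.1, and 1 of 16 arrays closest to its own number). With the replicate block, 2043 features passed in KO and 2051 in WT, Tap2 passed in WT (adjusted p = 0.0345, limma), and H2-K1 averaged over genotypes did not (adjusted p = 0.0642, limma).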
